A study of Mus musculus with 24 samples.

Results

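DNA replication licensing and synthesis genes were followed in cardiomyocyte (CM) nuclei of newborn mice. The set was a list of 43 gene symbols matched to the 56923 gene identifiers of the count tables, and all 43 were found. It held the 6 subunits of the origin recognition complex, 3 licensing factors, the 6 subunits of the MCM2-7 helicase, 3 other MCM proteins and 3 helicase activators. The synthesis side held 4 genes of polymerase alpha and primase, 4 of polymerases delta and epsilon, 6 of the sliding clamp and its loader and 3 of the single-strand DNA binding complex. It also held 2 genes of Okazaki fragment processing and 3 of deoxynucleotide supply.

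Nuclei were sorted by PCM1, a protein of the CM nuclear surface, from hearts of XMLC2(-)Casp2(fl/fl) mice (controls) and XMLC2(+)Casp2(fl/fl) mice (Casp2-depleted), at postnatal days 1, 7 and 14 (P1, P7, P14). All mice of both genotypes carried 2 floxed Casp2 alleles, and the Casp2-depleted mice also carried Cre under the XMLC2 promoter, which drives it in CMs. There were 4 libraries per group and 24 in all, each from a pool of 15 hearts at P1, 6 at P7 or 2 at P14. The 3 libraries that the study left out for low quality (replicate 1 of the P1 controls, replicate 3 of the P14 controls and, of the Casp2-depleted P14 libraries, replicate 1) were left out of the fit here too, which leaves 21.

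Before a cell copies its DNA, the origin recognition complex, Cdc6 and Cdt1 load the MCM2-7 helicase onto origins in an inactive form, a step called licensing that geminin (Gmnn) holds back by binding Cdt1. In S phase Cdc45 and the GINS complex switch the helicase on, polymerase alpha with primase starts each strand, and polymerases delta and epsilon, held to DNA by the clamp Pcna that the RFC complex loads, extend it. CMs of the mouse pass through a last round of DNA synthesis in the first weeks after birth, when many become binucleated or polyploid, and most of these genes are low in cells that have left the cell cycle.

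The 21 libraries held 891817 to 2924097 reads on genes and detected 7628 to 17770 genes, while of the uniquely aligned reads 34.3 to 76.1% fell outside genes. Casp2 itself had at most 5 reads in any library and reads only at P7, in both genotypes, so it does not check the genotype labels. All 11 cardiomyocyte markers (among them Ttn, Myh6, Tnnt2 and Pcm1) had reads in every group, and in each library they summed to between 12150 and 82077 RPM (reads per 1000000 reads on genes). Endothelial markers summed to 53.2 to 1115 RPM, mural cell markers to 67.2 to 529, fibroblast markers to 75.4 to 379, macrophage markers to 42.0 to 303 and erythroid markers to at most 110. In bulk libraries such as these, fewer cells of a type and less RNA per cell cannot be told apart.

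The replication genes were covered by few reads. Of the 903 pairs of 1 member and 1 library, 375 (41.5%) held no read, 41 held 1 to 3 reads and 487 held 4 or more, with a median of 39 and a maximum of 692 where any read was found. A member was often without a read in one replicate and well covered in another of the same group. Rpa3, the smallest subunit of the single-strand binding complex, had no read in any of the 24 libraries. Pcna, the clamp itself, was read in 2 libraries, with 9 and 4 reads. Rrm2, the small subunit of ribonucleotide reductase, was read in 2 with 3 reads each, and Cdt1 in 2, of which 1 is a library left out of the fit. These 4 members did not pass the filter on low counts (10 reads in total and a read in 3 of the 21 libraries), so 39 of the 43 were tested. The heat map of reads shows these gaps by member and library.

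**Figure D1:**
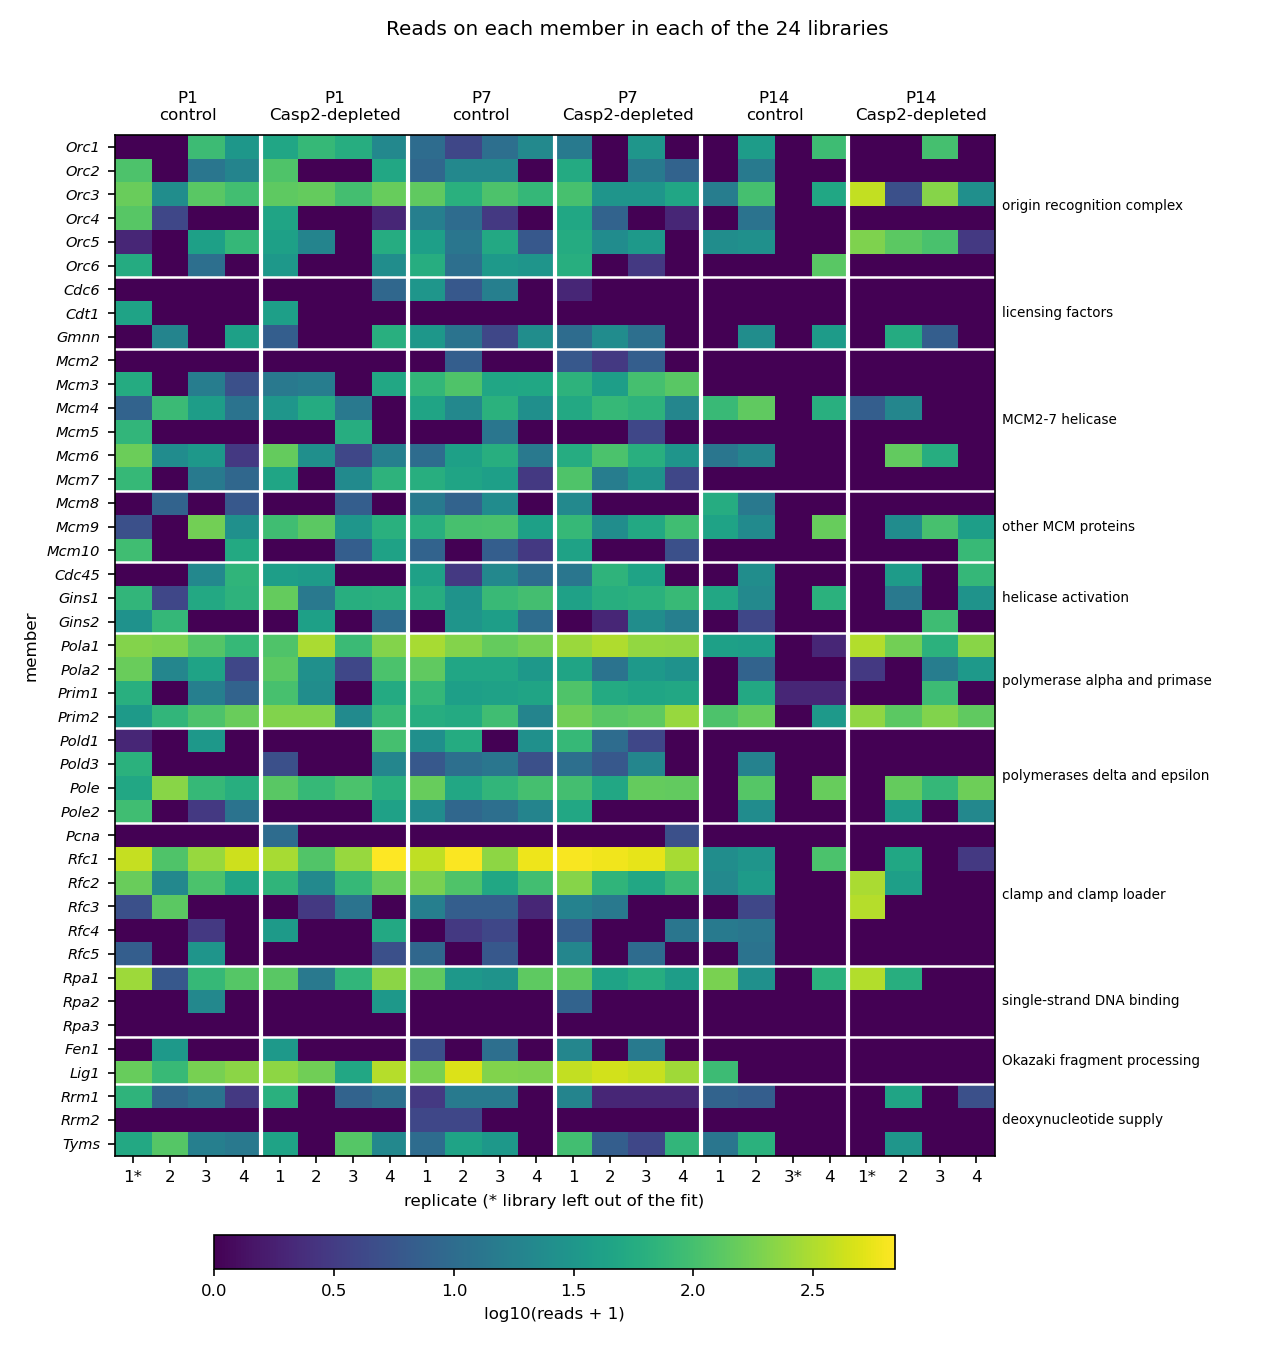
Reads on each of the 43 members (rows, grouped by role) in each of the 24 libraries (columns, grouped by day and genotype), as log10 of reads plus 1; dark cells hold no read and an asterisk marks the 3 libraries left out. Rfc1, Lig1, Pola1 and Prim2 are read in most libraries of P1 and P7, Lig1 is dark in all but 1 library of P14, and Rpa3 is dark throughout.

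Most of the reads came from a handful of genes. Rfc1, the large subunit of the clamp loader, took 17.3% of all reads on members, and Rfc1, Lig1 and Pola1 together took 37.5%. With Prim2 and Pole added, 5 members took 50.4%. Only Orc3, Pola1 and Prim2 were read in all 21 libraries. Detection went with the length of the gene in the genome, as the plot of gene span shows, with a Spearman's rho of 0.72 over the 43 members between span and the number of libraries with a read. Over 21631 protein-coding genes of the files the same rho was 0.74. All members were read from the same 21 libraries, and no p is given. The 8 members under 10 kb, which include Pcna, Cdt1, Rrm2 and Rpa3, were read in a median of 4 libraries and held 3.37% of the reads. The 8 members of 50 kb or more were read in a median of 20 and held 50.5%. The deposited counts cover the full gene, introns included. The number of runs of 12 or more A on the gene's strand gave a Spearman's rho of 0.77 with the number of libraries with a read, over the same 43 members. Such runs numbered 10 in Pole, 9 in Pola1 and 7 in Prim2, but 1 in Rfc1 and 0 in Lig1.

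**Figure D2:**
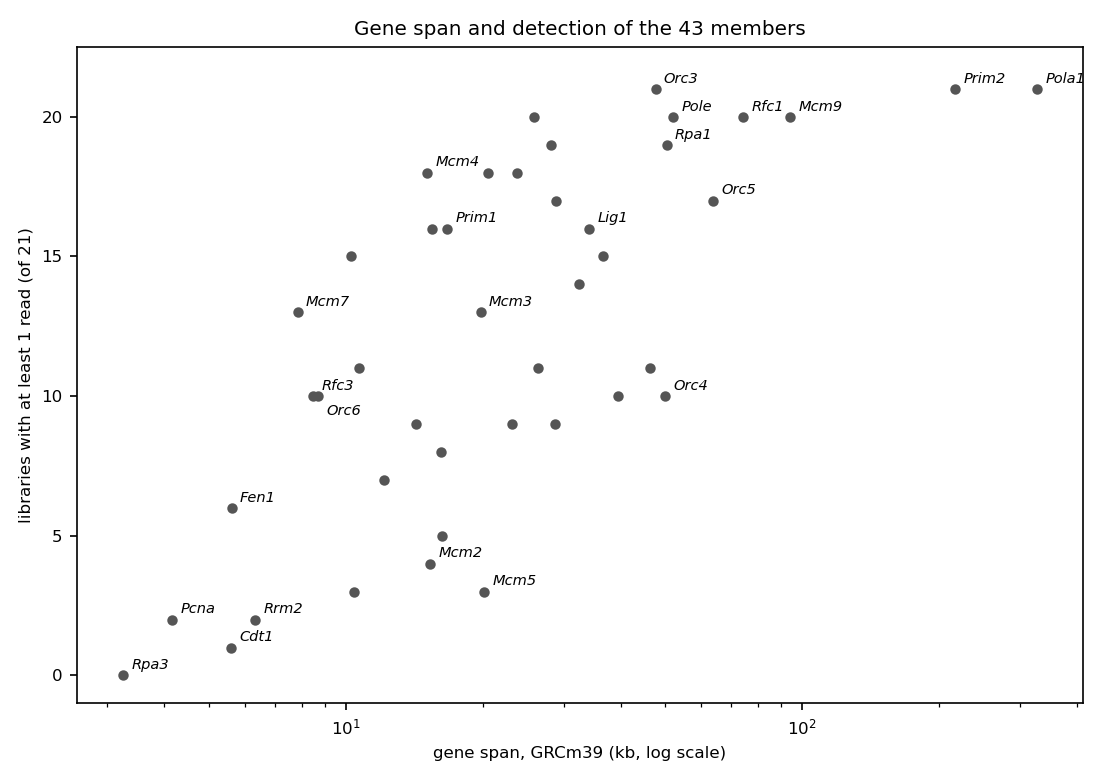
Gene span on GRCm39 in kb (log axis) against the number of the 21 libraries with at least 1 read, 1 point per member. Pola1 and Prim2 at the right are read in all 21 libraries, while Pcna, Cdt1, Rrm2 and Rpa3 at the left are read in 2 or fewer.

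Reads per length gave another order. In CPM (RPM with TMM-scaled library sizes) per kb of gene span, Lig1 had the highest mean over the 21 libraries, with 3.58. Rfc1 followed with 2.64, Rfc2 with 2.10 and Mcm4 with 1.95. In CPM alone Rfc1 had a mean of 196 and Lig1 of 122. Whether CPM per kb follows the amount of transcript in these 3′ libraries was not tested. Pola1, with the third largest number of reads, had 0.331 CPM per kb. Some members share sequence with other places in the genome, which can lower or blur their counts. Of the 32-base words in the last 500 bases of the Pcna transcript only 31.98% occur once in the genome, and for Mcm7 the share was 59.7%, for Tyms 62.9%, for Rfc4 64.2% and for Rfc2 67.0%. Mcm7, besides, overlaps Cops6 and Ap4m1 on the other strand and holds the Mir25, Mir93 and Mir106b genes, and the strand setting of the counting is not given in the sources used here. Values of these members are uncertain to that degree.

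The number of members with a read was highest at P7 and lowest at P14. At P7 the median was 35 of 43 in controls and 29 in Casp2-depleted CMs, against 26 and 25.5 at P1 and 16 and 13 at P14. The single libraries ranged from 27 to 36 and from 24 to 37 at P7, and from 13 to 28 and from 12 to 17 at P14, so the 2 genotypes overlapped on each day. The number of genes of any kind moved the same way, as the plot of members against genes detected shows, from 14006 to 17770 at P7 down to 7628 to 13651 at P14. As shares, the median P7 library detected 81.4% of members and 55.4% of protein-coding genes in controls, and 67.4 and 51.3% in Casp2-depleted CMs. The median P14 library detected 37.2% of members and 33.8% of protein-coding genes in controls, and 30.2 and 37.7% in Casp2-depleted CMs.

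**Figure D3:**
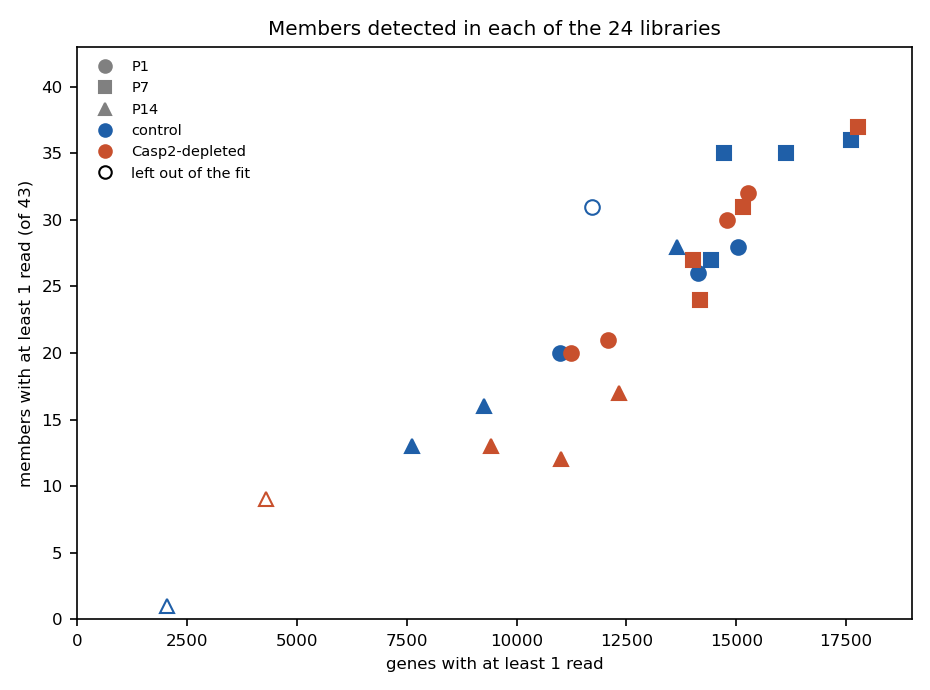
Genes with at least 1 read against members with at least 1 read (of 43), 1 point per library; circles are P1, squares P7, triangles P14, blue control, red Casp2-depleted, and open marks the 3 libraries left out. The P14 libraries of the fit lie toward the lower left, at 12 to 28 members, and the P7 libraries at the upper right, at 24 to 37.

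Members lost all their reads unevenly. No read was found at P1 for 3 members, at P7 for 2 and at P14 for 12, over 7, 8 and 6 libraries. The 12 at P14 were Cdc6 and Cdt1, the helicase subunits Mcm2, Mcm3, Mcm5 and Mcm7, the polymerase delta catalytic subunit Pold1, Pcna, Rpa2, Rpa3, the flap nuclease Fen1 and Rrm2, and the 2 P14 libraries left out held none of their reads either. Among protein-coding genes 39.4% had no read at P14, among members 27.9%. In controls alone 30.2% of members and 47.2% of protein-coding genes had none, and in Casp2-depleted CMs 48.8 and 47.3%. Of the 16 members read in all 8 libraries of P7, 2 (12.5%), Mcm3 and Mcm7, had no read in any P14 library, and of the 8293 genes of any kind read in all 8 libraries of P7, 133 (1.60%) had none. These are counts of 2 genes, and no test was made of them.

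The comparison of P14 with P7 asks how the replication genes behave as CMs leave the cell cycle. Lig1, the ligase that joins Okazaki fragments, and Rfc1 fell in both genotypes, and Mcm3, a subunit of the MCM2-7 helicase, fell in Casp2-depleted CMs. No member was called higher. In controls Mcm4 lay higher at P14 than at P7 without overlap, but it was not called. A gene was called at an edgeR quasi-likelihood adjusted p below 0.05 (Benjamini-Hochberg, over all 20368 genes tested) with an absolute log2 fold change above 1. In controls 2 of 39 members were called, against 1.88% of all genes, and 7 members had an unadjusted p below 0.05, against 14.8% of all genes. In Casp2-depleted CMs 3 were called, against 2.83% of all genes, and 7 had an unadjusted p below 0.05, against 16% of all genes.

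For Lig1 the control libraries of P7 held 94.6, 357, 130 and 147 CPM and those of P14 held 61.5, 0 and 0 CPM. The Casp2-depleted libraries held 177, 350, 274 and 191 CPM at P7 and no read at P14. Neither genotype overlapped between the days. From a mean of 182 ± 119 CPM (SD, n = 4) at P7, the control level fell by 3.14 ± 0.83 on the log2 scale (SE, edgeR adjusted p = 0.0144). In Casp2-depleted CMs the mean at P7 was 248 ± 80.7 CPM (SD, n = 4), and the P14 level was at least 359-fold lower, with the group's 0 reads set to a floor of 3 reads over the group (edgeR adjusted p = 2.4e-13). Such floors cover counting error only, and the use of molecular identifiers is not given in the sources used here. The call in Casp2-depleted CMs held in all of the alternative fits and without each library in turn. The control call was lost without P7 replicate 2 (edgeR adjusted p = 0.214), P14 replicate 2 (0.176) or P14 replicate 4 (0.192). It was also lost with DESeq2 (adjusted p = 0.053) and, in edgeR, with filterByExpr (0.155), with all 24 libraries (0.25) and with the groups compared alone (0.368).

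Rfc1 loads the clamp as the largest RFC subunit. Its control libraries held 196, 479, 150 and 436 CPM at P7 and 17.0, 21.8 and 81.2 CPM at P14. In Casp2-depleted CMs the libraries held 300, 481, 376 and 207 CPM at P7 and 33.8, 0 and 1.31 CPM at P14. All P14 libraries lay below all P7 libraries. The log2 fold change was -2.98 ± 0.70 in controls (SE, edgeR adjusted p = 0.00275) and -4.86 ± 0.77 in Casp2-depleted CMs (edgeR adjusted p = 1.3e-07). The control call was lost without P14 replicate 2 (edgeR adjusted p = 0.0848), with limma-voom (0.12) and, in edgeR, with filterByExpr (0.158) and all 24 libraries (0.204). In a fit that also held the percentage of reads outside genes as a covariate, no member was called in controls, and Rfc1 and Lig1 were in Casp2-depleted CMs.

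Mcm3 forms part of the helicase ring. Its control libraries held 39.2, 81.4, 30.8 and 36.0 CPM at P7, its Casp2-depleted libraries 31.3, 30.1, 68.1 and 91.4 CPM, and no P14 library held a read. The P14 level was at least 62.2-fold lower in controls (edgeR adjusted p = 0.0675, not called) and at least 80.3-fold lower in Casp2-depleted CMs (edgeR adjusted p = 0.0410, called). DESeq2 and limma-voom called Mcm3 in both genotypes, and the difference between the genotypes in its change did not pass (edgeR adjusted p = 1.00). In edgeR the call in Casp2-depleted CMs was lost without each of the 7 libraries in turn (adjusted p from 0.0671 to 0.22) and with replicate numbers as a block (0.0644). It was lost too with relative log expression factors (edgeR adjusted p = 0.0801), filterByExpr (0.0549), no filter (0.0579), all 24 libraries (0.0888) and the covariate for reads outside genes (0.177), and it was kept with the groups compared alone (0.0129). Mcm7, its neighbour in the ring, held 1.4998 to 32.4 CPM in the control libraries of P7 and 2.11 to 53.3 CPM in the Casp2-depleted ones, and no read at P14. It was at least 32.1-fold and at least 38.5-fold lower, with adjusted p of 0.215 and 0.177 in edgeR, while DESeq2 and limma-voom called it in both genotypes.

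**Figure D4:**
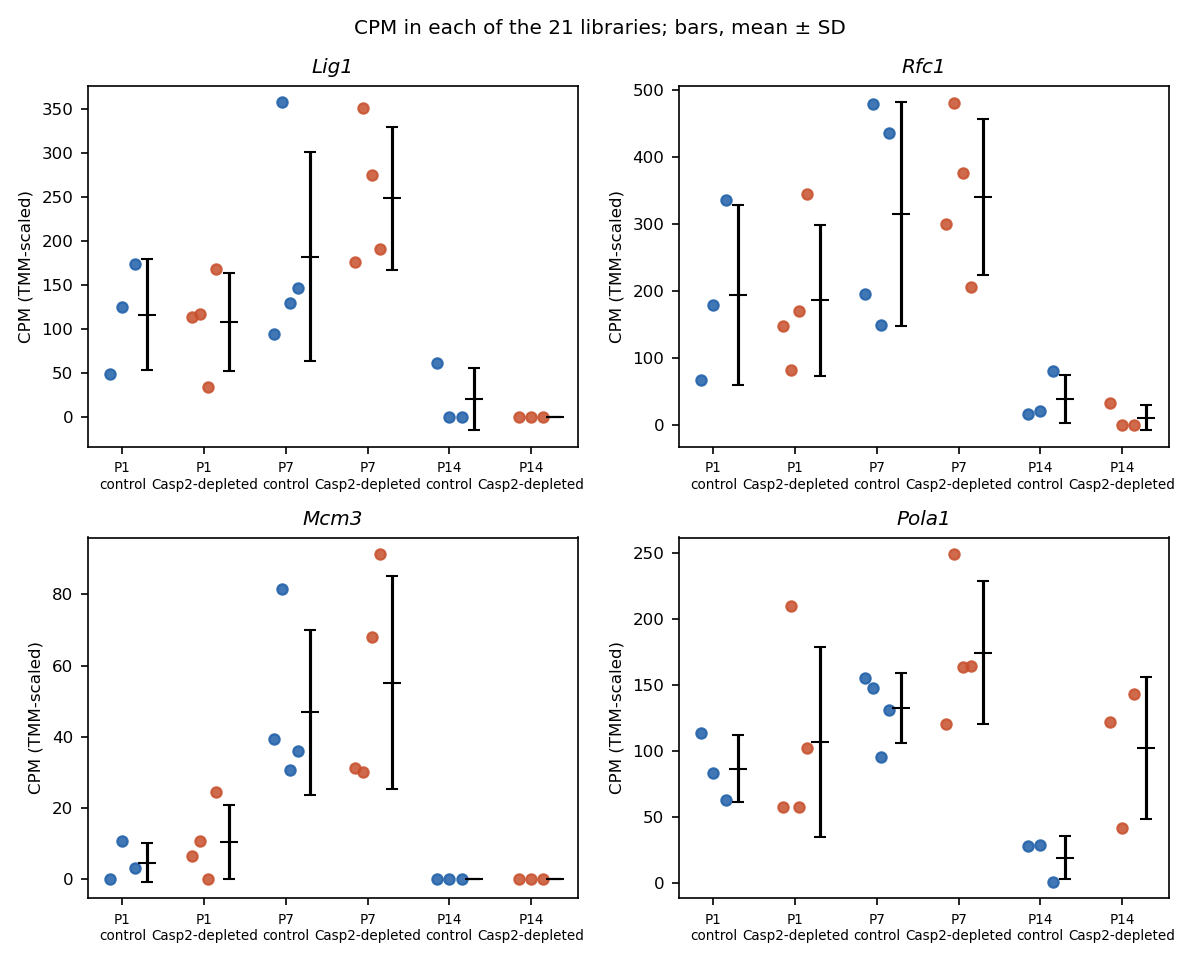
CPM (TMM-scaled) of Lig1, Rfc1, Mcm3 and Pola1 in each of the 21 libraries, 1 point per library, with bars for the mean ± SD of each group (blue control, red Casp2-depleted). For Lig1, Rfc1 and Mcm3 all P14 points lie below all P7 points of the same genotype, and for Pola1 this holds in controls.

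Several measures of the libraries moved with these falls. Reads outside genes made up 34.3 to 64.3% of those aligned in the P7 libraries and 63.7 to 76.1% over those of P14, and the cardiomyocyte markers summed to 45399 to 82077 RPM at P7 and 12150 to 44452 at P14. P14 pools were of 2 hearts and P7 pools of 6. Fibroblast markers summed to means of 150 RPM in P7 controls and 257 in P14 controls, and of 139 (113 to 181) and 312 (202 to 379) in Casp2-depleted CMs, where the days did not overlap. Macrophage markers had means of 63.8 and 147 RPM in controls and 97.7 and 191 in Casp2-depleted CMs, and both genotypes overlapped between the days. Endothelial markers had means of 233 and 522 RPM in controls, which overlapped, and of 295 (148 to 468) and 604 (587 to 630) in Casp2-depleted CMs, which did not. Mural cell markers went the other way, with means of 326 and 301 RPM in controls, which overlapped. In Casp2-depleted CMs they fell from 393 (303 to 488) to 217 (177 to 291), without overlap. Erythroid markers had means of 24.2 and 9.94 RPM in controls and 44.4 and 36.8 in Casp2-depleted CMs, and both genotypes overlapped. Apart from the fit with the percentage of reads outside genes as a covariate, the part of these measures in the falls was not tested.

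Pola1, the catalytic subunit of polymerase alpha, was next in controls. Controls held 155, 148, 95.6 and 130 CPM at P7 and 28.3, 28.5 and 0.759 CPM at P14, with no overlap. Casp2-depleted CMs held 120, 248.95, 163 and 165 CPM at P7 and 122, 41.6 and 143 CPM at P14, which overlap. The control log2 fold change was -2.78 ± 0.87 (SE, edgeR adjusted p = 0.0658), which passed the threshold with replicate numbers as a block (edgeR adjusted p = 0.039) and with DESeq2 (adjusted p = 0.00929). The difference between the genotypes in this change did not pass (edgeR adjusted p = 0.572). Pola2, the partner subunit, was at 40.2 CPM on average at P7 and 1.75 at P14 in controls, with no overlap and an edgeR adjusted p of 0.328, and was called by DESeq2 and limma-voom. Polymerase alpha and primase were read in 16 of 16 pairs of member and library in both genotypes at P7 and in 9 of 12 in both at P14.

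Over all 39 members tested, the median log2 fold change from P7 to P14 was -0.71 in controls, beside -0.75 over all genes tested, and -2.19 in Casp2-depleted CMs, beside -0.61 over all genes. With members that had no read in a group set at their floor, the medians were -0.67 and -1.57. Relative log expression factors in place of TMM moved the median of all genes by 0.23 in controls and 0.35 in Casp2-depleted CMs, and gave member medians of -0.55 and -1.77. The median in Casp2-depleted CMs was -0.73 with the covariate for reads outside genes and -0.80 in a fit of the groups compared alone. Groups did not overlap between P7 and P14 for 8 of the 39 members in controls (20.5%), against 15.4% of all genes tested, and for 6 in Casp2-depleted CMs (15.4%), against 13.2%. Of the 8 in controls, Mcm4 lay higher at P14, and all 6 in Casp2-depleted CMs lay lower. The 2 changes come from separate libraries and are set side by side in the plot of the change from P7 to P14.

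**Figure D5:**
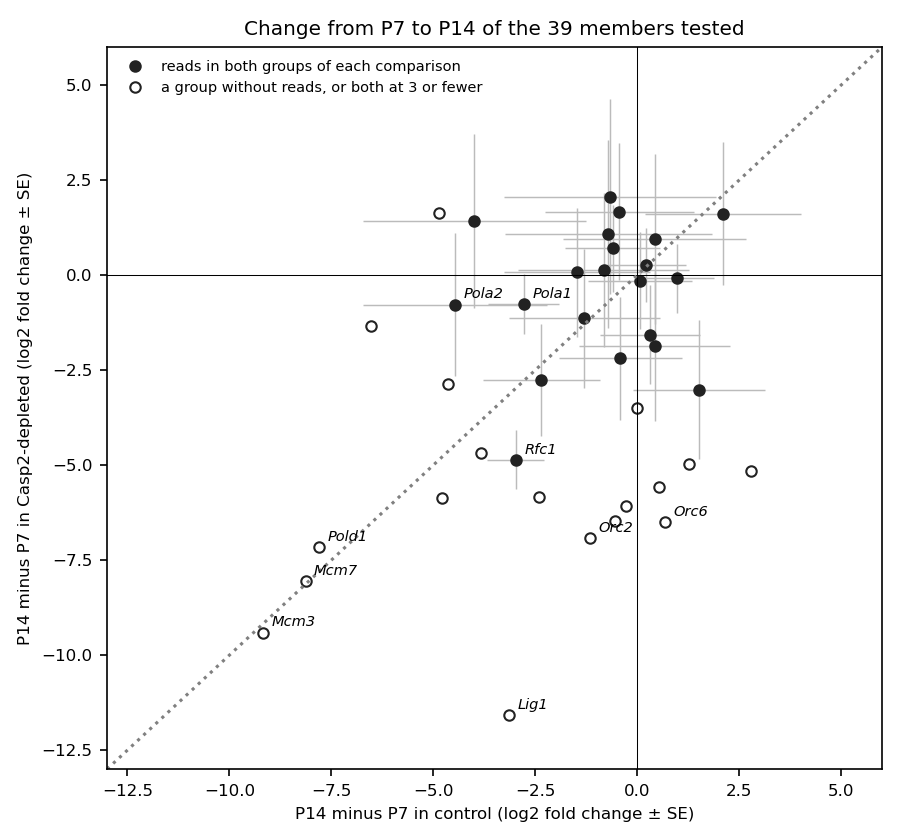
Log2 fold change from P7 to P14 in controls (horizontal) and in Casp2-depleted CMs (vertical) for the 39 members tested, with SE bars where each comparison has reads in both groups; open circles have a group without reads, or both at 3 or fewer, where the fitted size depends on the prior count. Rfc1, Lig1, Mcm3, Mcm7 and Pold1 lie low on both axes.

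The promoters of the 3 called members are shown because genes of DNA replication are classic targets of E2F factors, whose activity is tied to S phase. The windows run from 250 bases before to 50 bases after a RefSeq start, written 5′ to 3′ on the gene's strand, and capitals mark E2F-type motifs, searched on both strands as TTTCCCGC, TTTGGCGC, TTTCGCGC and TTTGCCGC. RefSeq gives 3 starts for Lig1, and the window printed is the one with a motif. They were placed by their own match on GRCm39 at chr7:13012502-13012801 (plus strand) for Lig1, chr1:20890487-20890786 (minus strand) for Mcm3 and chr5:65492933-65493232 (minus strand) for Rfc1.
Lig1: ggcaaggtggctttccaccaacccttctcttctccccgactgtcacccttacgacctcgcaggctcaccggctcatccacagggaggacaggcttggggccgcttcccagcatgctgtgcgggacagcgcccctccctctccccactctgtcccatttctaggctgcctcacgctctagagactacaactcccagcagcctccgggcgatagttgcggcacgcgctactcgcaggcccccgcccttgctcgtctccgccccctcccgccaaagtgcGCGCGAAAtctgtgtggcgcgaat
Mcm3: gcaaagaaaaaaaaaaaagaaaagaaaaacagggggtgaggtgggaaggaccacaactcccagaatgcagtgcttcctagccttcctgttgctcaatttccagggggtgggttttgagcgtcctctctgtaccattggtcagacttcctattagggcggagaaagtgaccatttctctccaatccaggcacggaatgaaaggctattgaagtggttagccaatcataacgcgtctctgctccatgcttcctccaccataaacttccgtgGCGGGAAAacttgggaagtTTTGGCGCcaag
Rfc1: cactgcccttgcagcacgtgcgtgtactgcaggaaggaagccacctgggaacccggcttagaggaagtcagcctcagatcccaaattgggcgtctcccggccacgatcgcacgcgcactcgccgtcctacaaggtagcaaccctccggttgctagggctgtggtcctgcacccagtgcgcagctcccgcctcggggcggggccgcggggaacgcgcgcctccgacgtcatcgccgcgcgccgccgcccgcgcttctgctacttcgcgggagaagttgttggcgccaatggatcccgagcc

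The motif of Lig1 starts 27 bases after the start and the motifs of Mcm3 start 20 and 39 bases after it, while the window of Rfc1 holds none of these letters. A window was at hand for 36 members, the others being Gins2, Gins1, Gmnn, Prim2, Rfc2, Pole and Mcm4. Of the 36, 15 (41.7%) held a motif in at least 1 window. Of all 27025 genes with a window 2.605% held one, and of 17492 protein-coding genes 3.29%. Members with a motif besides Lig1 and Mcm3 were Orc1, Orc3, Cdc6, Cdt1, Mcm5, Mcm6, Mcm7, Mcm8, Pola1, Pold1, Pold3, Pole2 and Rfc3. A match is a description of the letters in the window and not a site of binding.

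From P1 to P14 the same 2 genes, Lig1 and Rfc1, were called in Casp2-depleted CMs and no member was called in controls. In Casp2-depleted CMs, 2 of 39 members were called against 1.94% of all genes, and 9 had an unadjusted p below 0.05 against 17.5%. Lig1 stood at 114, 117, 33.9 and 168 CPM at P1 and had no read at P14, at least 171-fold lower (edgeR adjusted p = 5.8e-11). Rfc1 stood at 148, 82.1, 171 and 346 CPM at P1, with a log2 fold change of -3.99 ± 0.74 at P14 (SE, edgeR adjusted p = 2.9e-05). All P14 libraries lay below all P1 libraries for both, the 2 members without overlap (5.13% of 39, against 6.79% of all genes). Without P14 Casp2-depleted replicate 2, Rpa1 and Rfc2 were called besides, 4 members in all. Mcm3 was next in Casp2-depleted CMs with 6.54, 10.5, 0 and 24.5 CPM at P1 and an edgeR adjusted p of 0.17. In controls edgeR called 0 of 39 members against 0.319% of all genes, 7 had an unadjusted p below 0.05 against 11.5%, DESeq2 called 1 (Pold1) and limma-voom 0. Control Rfc1 stood at 68.0, 179 and 336 CPM at P1 and overlapped P14, with a log2 fold change of -2.28 ± 0.70 (edgeR adjusted p = 0.159). The control levels of Lig1 at P1 were 49.4, 125 and 174 CPM and also overlapped, through the 61.5 CPM of P14 control replicate 1. Control Pola1 stood at 113, 83.1 and 62.8 CPM at P1 and did not overlap P14 (edgeR adjusted p = 0.422), as 1 member of 39 against 7.93% of all genes, and Casp2-depleted Pola1 stood at 57.3, 210, 57.6 and 102 CPM at P1. Without P14 control replicate 1 Lig1 was called in controls too (edgeR adjusted p = 3.1e-07), and without P14 control replicate 4 Rfc1 was (edgeR adjusted p = 0.0342).

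Between P1 and P7 no member passed the threshold in either genotype. edgeR called 0 of 39 in controls against 0.00982% of all genes, with 2 members at an unadjusted p below 0.05 against 6.67%, and DESeq2 and limma-voom called 0. In Casp2-depleted CMs edgeR called 0 against 0.0196% of all genes, with 1 at an unadjusted p below 0.05 against 7.4%, and the other tools called 0. P7 was the higher day for 25 of the 39 members tested in controls and 23 in Casp2-depleted CMs. The median change over all genes tested was upward as well, in both genotypes. Lig1 had 108.27 ± 55.6 CPM at P1 and 248 ± 80.7 at P7 (SD, n = 4 each) in Casp2-depleted CMs without overlap (log2 fold change 1.195 ± 0.69, edgeR adjusted p = 0.793). Mcm3, with 0, 10.6 and 3.18 CPM in the P1 controls, was at 4.58 CPM on average at P1 and 46.8 at P7 in controls, and at 10.4 and 55.2 in Casp2-depleted CMs. Groups did not overlap between P1 and P7 for 4 members in controls, against 9.76% of all genes, and for 3 in Casp2-depleted CMs, against 1.96%. The 4 in controls lay higher at P7. Of the 3 in Casp2-depleted CMs, Mcm3 and Lig1 lay higher at P7 and Orc3 lay lower. The median log2 fold change of members was 0.55 in controls beside 0.21 over all genes, and 0.15 in Casp2-depleted CMs beside 0.07.

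The comparison of genotypes asks whether the replication genes stand at other levels in Casp2-depleted CMs than in controls. Only the Casp2-depleted mice carried Cre, so the presence of Cre and the loss of Caspase-2 cannot be told apart here. At P1 and P7 no member passed the threshold. At P1 edgeR called 0 of 39, as of all genes (0%), with 1 member at an unadjusted p below 0.05 against 7.34% of all genes, and DESeq2 and limma-voom called 0. At P7 it called 0, again with 0% of all genes, and no member had an unadjusted p below 0.05 against 4.22%, while DESeq2 had 1, limma-voom had 3 and neither called any. The genotypes did not overlap for 0 members at P1, against 3.4% of all genes, and for 2, Pola2 and Prim2, at P7, against 1.64%. Of the 2, Pola2 lay lower in Casp2-depleted CMs and Prim2 lay higher. Mean levels of Pola2 at P7 were 40.2 CPM in controls and 17.9 CPM in Casp2-depleted CMs. The medians over members were 0.14 at P1 and 0.07 at P7, beside 0.08 and -0.03 over all genes. With an SE of 0.87 on its log2 fold change of 1.63, Prim2, the large primase subunit, came closest at P7 (unadjusted p 0.0610 and edgeR adjusted p = 1). Its control libraries held 30.3, 38.9, 60.9 and 13.5 CPM and its Casp2-depleted libraries 77.5, 99.1, 92.9 and 176 CPM, without overlap. At P14 Prim2 held 78.5, 109 and 25.1 CPM in controls and 94.5, 127 and 92.4 in Casp2-depleted CMs, and at P1 44.6, 77.5 and 123 and then 102, 139, 14.9 and 41.0. Mean levels of Prim2 in controls and Casp2-depleted CMs were 81.7 and 74.1 CPM at P1 and 70.8 and 105 CPM at P14.

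At P14 1 member of 39 was called between the genotypes, against 0.167% of all genes, and 7 had an unadjusted p below 0.05 against 12.8%. The called member was Lig1, with 61.5, 0 and 0 CPM in controls and no read in Casp2-depleted CMs, at least 32.3-fold lower (edgeR adjusted p = 2.8e-05). The groups overlapped at 0, and the difference rested on the 87 reads of P14 control replicate 1. Without that library both genotypes had no read and no member was called, and without Casp2-depleted replicate 2 Rpa1 and Rfc1 were called besides Lig1. Pola1 was next, at 28.3, 28.5 and 0.759 CPM in controls and 122, 41.6 and 143 CPM in Casp2-depleted CMs, without overlap (log2 fold change 2.41 ± 0.88, edgeR adjusted p = 0.354). DESeq2 called 4 members (Pola1, Orc6, Rfc3 and Lig1) and limma-voom called 1, Mcm4. The shares of all genes that these tools called are not at hand. Mcm4, a helicase subunit, had 84, 140 and 61 reads in controls and 19, 0 and 0 in Casp2-depleted CMs, without overlap (edgeR adjusted p = 0.388). Pola1 and Mcm4 were the 2 members without overlap (5.13%), against 5.15% of all genes. Orc6 had its 129 control reads in replicate 4 alone.

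Averaged over the 3 days, Lig1 was again the called member, 1 of 39 against 0.0147% of all genes, with 4 members at an unadjusted p below 0.05 against 8.4%. Its log2 fold change was -2.55 ± 0.56 (edgeR adjusted p = 0.0371), a size that depends on the prior count, since a group had no read. It was not called with replicate numbers as a block (edgeR adjusted p = 0.477). No member was called in 14 of the 21 fits that left out 1 library, and without P14 control replicate 1 its sign turned, to 0.12. Of the interactions between genotype and day, that from P1 to P7 called 0 of 39 members as of all genes (0%), with 2 at an unadjusted p below 0.05 against 6.83%, and 0 with DESeq2 and limma-voom. For P7 to P14 Lig1 was called, 1 of 39 against 0.0245% of all genes (edgeR adjusted p = 2.6e-04), with 4 at an unadjusted p below 0.05 against 9.76%. For P1 to P14 it was called too, 1 of 39 against 0.0638% (edgeR adjusted p = 0.00283), with 5 at an unadjusted p below 0.05 against 11.7%. With the replicate block their adjusted p were 0.102 and 0.437, and without P14 control replicate 1 no member was called in either. Without P14 Casp2-depleted replicate 2, Rfc1 was called as well in both.

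The origin recognition complex marks the sites where replication can begin. Orc3 was the subunit with the highest mean level and was read in all 21 libraries of the fit. It had 24, 130 and 95 reads in the P1 controls, 135, 147, 96 and 152 in Casp2-depleted CMs of that day and 139, 63, 110 and 77 in P7 controls. It had 101, 29, 29 and 47 in the P7 Casp2-depleted libraries, 15, 100 and 48 in the P14 controls and 4, 208 and 25 in the P14 Casp2-depleted ones. Within the P14 Casp2-depleted group alone Orc3 ran from 4 to 208 reads. Orc1, Orc2, Orc4, Orc5 and Orc6 were read in 15, 11, 10, 17 and 10 of the 21 libraries. Orc6 was in the 3 members of smallest p at P14, and had 58, 10, 33 and 29 reads in the P7 controls but 59, 0, 2 and 0 in the P7 Casp2-depleted libraries. At P1 it had 0, 10 and 0 reads in controls and 32, 0, 0 and 24 in Casp2-depleted CMs. The complex was read in 22 of 24 pairs of member and library in P7 controls and 17 of 24 in P7 Casp2-depleted CMs, and in 10 and 7 of 18 at P14.

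The licensing factors were close to the limit of detection. Cdc6, which loads the helicase with the origin complex, had 30, 5, 16 and 0 reads in the P7 controls, 1 read in P7 Casp2-depleted replicate 1 and 8 in P1 Casp2-depleted replicate 4. No other library of the 21 held a read, and the edgeR adjusted p of its P7 difference between genotypes was 1. Geminin, the inhibitor of Cdt1, was read in 15 libraries, with 31, 11, 3 and 24 reads in the P7 controls and 9, 23, 10 and 0 in the P7 Casp2-depleted libraries. At P14 it had 0, 24 and 35 reads in controls and 55, 6 and 0 in Casp2-depleted CMs. Its P1 libraries held 18, 0 and 40 reads in controls and 6, 0, 0 and 61 in Casp2-depleted CMs. At P14 the inhibitor had reads, and Cdc6 and Cdt1 had none. Their absence was not particular to P14, since Cdt1 had no read at P7 and Cdc6 none in the P1 controls of the fit.

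Among the MCM2-7 subunits, Mcm4 and Mcm6 kept reads at P14 while Mcm2, Mcm3, Mcm5 and Mcm7 had none. Mcm4 had 86, 37 and 11 reads in the P1 controls and 30, 55, 13 and 0 in the P1 Casp2-depleted libraries. At P7 it had 45, 20, 64 and 25 in controls and 51, 78, 68 and 19 in Casp2-depleted CMs. Mcm6 was read in 19 of the 21 libraries. Mcm2 was read only at P7, with 6 reads in P7 control replicate 2 and 5, 2, 6 and 0 in the Casp2-depleted libraries (from P1 to P7, edgeR adjusted p = 0.672). Mcm5 had 58 reads in P1 Casp2-depleted replicate 3, 12 in P7 control replicate 3 and 3 in P7 Casp2-depleted replicate 3, and none in the other 18 libraries of the fit. The 6 subunits act as 1 ring, and in these libraries their reads were spread unequally over them.

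Of the other MCM proteins, Mcm9, which acts in DNA repair with Mcm8, was read in 20 libraries. It had 44, 22 and 149 reads in the P14 controls and 23, 102 and 38 in the P14 Casp2-depleted libraries. At P7 it had 61, 101, 106 and 40 reads in controls and 78, 24, 51 and 93 in Casp2-depleted CMs, and at P1 it had 0, 173 and 26 and then 93, 131, 30 and 63. Mcm8 had 14, 7, 23 and 0 reads in the P7 controls, 57, 13 and 0 in the P14 controls and 7, 0 and 5 in the P1 controls. In Casp2-depleted CMs it was read in P1 replicate 3, with 6 reads, and P7 replicate 1, with 21. Over the mean of days its edgeR adjusted p was 0.492. Mcm10, which helps to start the fork, was read in 9 libraries.

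Gins1, a GINS subunit and the helicase activator with the highest mean, was read in 20 of 21 libraries. It had 3, 51 and 67 reads in the P1 controls, 147, 13, 59 and 63 in the Casp2-depleted ones of that day, 58, 28, 83 and 97 in P7 controls and 41, 60, 64 and 82 in the P7 Casp2-depleted ones. At P14 it had 50, 21 and 64 reads in controls and 13, 0 and 28 in Casp2-depleted CMs. Cdc45 was read in 14 libraries and Gins2 in 11, and neither was called in any comparison.

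Pole, the catalytic subunit of the leading strand polymerase epsilon, was the member of its role with the highest mean. Its reads were 0, 123 and 150 in the P14 controls and 147, 76 and 162 in the P14 Casp2-depleted libraries, against 149, 49, 74 and 100 and then 96, 49, 147 and 144 at P7. At P1 they were 214, 78 and 60 in controls and 130, 80, 108 and 63 in Casp2-depleted CMs. Pold1, the catalytic subunit of the lagging strand polymerase delta, went from a mean of 18.0 ± 16.5 CPM (SD, n = 4) in P7 controls to no read at P14 (edgeR adjusted p = 0.263). Pold3, a further delta subunit, had 5, 10, 12 and 4 reads in the P7 controls. In the P7 Casp2-depleted libraries it had 10, 5, 19 and 0. It had 0 in all P1 controls of the fit and 64 in P1 control replicate 1, which was left out. It had 4, 0, 0 and 19 reads in the P1 Casp2-depleted libraries, and 17 in P14 control replicate 2 as its only reads of that day (controls from P1 to P7, edgeR adjusted p = 0.626). Pole2 was read in 11 libraries.

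Within the clamp loader Rfc1 and Rfc2 were read in 20 and 18 of 21 libraries and Rfc3, Rfc4 and Rfc5 in 10, 9 and 7. The summed CPM of the clamp and its loader was 393 ± 175 in P7 controls and 415 ± 111 in P7 Casp2-depleted CMs (SD, n = 4 each), and 63.5 ± 20.1 and 20.9 ± 35.1 at P14 (SD, n = 3 each), without overlap between the days. Rfc1 alone made up most of each P7 sum. Rpa1, the large subunit of the single-strand binding complex, was read in 19 libraries, with 186, 26 and 65 reads in the P14 controls and 59, 0 and 0 in the P14 Casp2-depleted ones. It had 138, 32, 28 and 136 reads in the P7 controls and 137, 44, 58 and 37 in the P7 Casp2-depleted libraries. At P1 it had 5, 78 and 122 reads in controls and 128, 13, 74 and 219 in Casp2-depleted CMs. Rpa2 was read in 3 libraries, with 20 reads in P1 control replicate 3, 32 in P1 Casp2-depleted replicate 4 and 7 in P7 Casp2-depleted replicate 1 (controls from P1 to P7, edgeR adjusted p = 0.626).

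Fen1, which trims the flaps that Lig1 then seals, was read in 6 libraries, 2 of P1 and 4 of P7. Of the genes of deoxynucleotide supply, Tyms, the thymidylate synthase, had the highest mean and was read in 16 libraries. Its reads were 122, 16 and 13 in the P1 controls, 43, 0, 122 and 20 in Casp2-depleted CMs of that day, 9, 43, 32 and 0 in P7 controls and 95, 6, 3 and 74 in the P7 Casp2-depleted ones. At P14 it had 12, 65 and 0 reads in controls and 30, 0 and 0 in Casp2-depleted CMs. Rrm1, the large subunit of ribonucleotide reductase, was read in 17 libraries, but with 213 reads in all.

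As a share of the library, the members together made up little and their level at P14 against P7 depended on the scaling. Their summed CPM with TMM factors was 1091 ± 296 (SD, n = 3) and 1140 ± 282 (n = 4) at P1 in controls and Casp2-depleted CMs, and 1366 ± 244 and 1541 ± 175 (n = 4 each) at P7. At P14 it was 682 ± 115 and 682 ± 128 (n = 3 each), below every P7 library. Without TMM factors the mean RPM at P7 were 1012 and 1249 and those at P14 were 892 and 949, since the mean TMM factor was 0.757 and 0.821 at P7 and 1.30 and 1.42 at P14. The TMM scaling lowered P14 against P7 by 0.78 in controls and 0.80 in Casp2-depleted CMs on the log2 scale. Its share in the fitted falls of Lig1 and Rfc1 was not tested.

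The 40 other replication genes, of which 38 were tested, gave calls in the same direction. From P7 to P14, 4 were called lower in controls (Rif1, Chaf1a, Clspn and Ddb1) and 3 in Casp2-depleted CMs (Rif1, Cul4a and Clspn), with none higher. Of all genes tested, 1.88 and 2.83% were called, in either direction. The median log2 fold changes of the list were -1.10 and -1.83, beside -0.75 and -0.61 over all genes. Rif1, which sets the time at which origins fire, had a mean of 685 CPM in P7 controls and 76.5 in P14 controls (log2 fold change -3.16 ± 0.59, edgeR adjusted p = 4.0e-05) and of 562 and 49.9 in Casp2-depleted CMs (-3.49 ± 0.60, edgeR adjusted p = 1.4e-06). Clspn, the checkpoint mediator claspin, had no read at P14, at least 66.4-fold and 65.7-fold lower. From P1 to P14 Rif1, Cul4a and Ddb1 were called lower in Casp2-depleted CMs, against 1.94% of all genes called. Between the genotypes at P14 Cul4a, a scaffold of the ligase that degrades Cdt1 in S phase, was called lower in Casp2-depleted CMs (35.7 CPM on average in controls and no read, at least 52.8-fold lower, edgeR adjusted p = 0.0405). It did not overlap between the groups, as 5.15% of all genes did not, and 0.167% of all genes were called.

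Of the 20 G2 and M phase genes, 17 were tested. From P7 to P14 the proliferation marker Mki67 and the topoisomerase Top2a were called lower in controls, and Mki67 in Casp2-depleted CMs. Of all genes tested, 1.88 and 2.83% were called. Mki67 had a mean of 66.6 and 66.4 CPM at P7 and no read at P14, at least 93.9-fold and 107-fold lower (edgeR adjusted p = 0.0198 and 0.0119). Top2a had a mean of 69.2 CPM at P7 and 0.500 at P14 in controls (edgeR adjusted p = 0.0205) and of 97.9 and 4.80 in Casp2-depleted CMs (edgeR adjusted p = 0.15). Between the genotypes none was called, and the smallest p at P14 were those of Tpx2 and Cdk1 (edgeR adjusted p = 0.373 and 0.386). The medians of the G2 and M phase genes from P7 to P14 were -2.62 in controls and -0.82 in Casp2-depleted CMs, beside -0.75 and -0.61 over all genes. Calls of this list and of the other replication genes are given for the main edgeR fit only, without the alternatives.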

How the data were processed

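Libraries for 3′ mRNA sequencing were made from sorted nuclei of pooled hearts. Per the labels and the study's methods, the authors trimmed reads (cutadapt 4.0), aligned them to GRCm39 (STAR 2.6.1e) and deposited raw counts of reads per gene, exons and introns included (HTSeq 2.0.3). No normalization was applied to the deposited counts. Reads outside genes, 34.3 to 76.1% of those aligned, did not count toward library sizes. Symbols and positions came from GENCODE vM39, which names 56236 of the 56923 identifiers, and promoter windows from RefSeq (GRCm38.p6), placed on GRCm39 by exact match.

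Differences were tested with edgeR 4.0.16 (R 4.3.3; TMM factors, robust quasi-likelihood F-test) on 20368 genes in 21 libraries and 6 group means, with 15 residual degrees of freedom, in 10 comparisons and 3 interactions. Common biological coefficient of variation was 1.5. Standard errors are the log2 fold change over the root of F. With a spread this wide, a gene that was not called is not shown to be alike between groups. Replicates are separate pools per the study's methods, so p-values measure only the spread between these pools. Alternatives were relative log expression factors, DESeq2 1.42.0, limma-voom 3.58.1, filterByExpr, no filter, all 24 libraries, the replicate number as a block, only the groups compared and each library left out. The fit without robust estimation and the fit with the percentage of reads outside genes as a covariate were chosen after seeing the data.

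The names of the deposited tables mark the replicate number as a batch, and what the batch was is not stated. The numbers may pair control and Casp2-depleted libraries, which only the fit with replicate numbers as a block took up. Deviations of same-numbered libraries from their group means correlated by -0.0590 to 0.185 over 9 pairs. Members, gene lists and tests were chosen with earlier results of these data known. Named with values in every library were members called in any comparison, the member of each role with the highest mean CPM, and the 3 members of smallest p in each comparison of genotypes or days. Of the other lists, called genes and the 2 of smallest p were eligible. Depth was 891817 to 2924097 reads on genes, so a floor of 3 reads is 1.03 to 3.36 CPM in 1 library.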

Additional observations from a re-analysis of the deposited data

Results flagged for a closer look

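Lig1 changed differently from P7 to P14 in the 2 genotypes, with an interaction of -8.43 on the log2 scale, and from P1 to P14, with -7.88 (edgeR adjusted p = 0.000256 and 0.00283). Both stand here because the difference between the genotypes was itself tested and passed. Both compare a group without a read with one whose 87 reads came from P14 control replicate 1, so the fitted sizes depend on the prior count, and without that library neither was called.

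Within P7 controls, replicate 4 detected 27 members, far below the other 3 libraries of its group, and replicate 2 held 81.4 CPM of Mcm3, far above its other 3. These were 2 marks over 15 groups tested for a library far from the others, and chance alone marks about 1 in 20 groups.

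In the Casp2-depleted P14 library that the study left out, replicate 1, Rfc2 had 300 reads and Rfc3 had 333, more than 5 times their highest share in any other library of that day. These reads entered no comparison.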

How the results depend on the processing

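Calls rested on few reads and on single libraries. Lig1 in Casp2-depleted CMs kept its calls from P7 and from P1 to P14 in every alternative run, Rfc1 lost the first with the groups compared alone and the second with limma-voom and with all 24 libraries (adjusted p = 0.16, 0.0507 and 0.0619), and the calls for Lig1 between the genotypes hung on P14 control replicate 1. Where an alternative differed and no value above shows why, the cause was not tested. Shares of all genes called are given for the main edgeR fit only, and none stands beside the counts of the alternatives. DESeq2 called 4 members between the genotypes at P14, 3 over the mean of days, 6 in controls (without Lig1) and 7 in Casp2-depleted CMs from P7 to P14, 1 and 7 from P1 to P14, and 3 and 2 in the interactions from P7 and from P1 to P14. limma-voom called 4 (without Rfc1) and 5 from P7 to P14, 1 from P1 to P14 in Casp2-depleted CMs, and 0 over the mean of days and in both interactions, with a control median of -1.89 from P7 to P14. filterByExpr gave 0 at P14, over the mean, in controls from P7 to P14 and in both interactions, and a Casp2-depleted median of -1.61 from P7 to P14. All 24 libraries gave 0 over the mean, in controls from P7 to P14 and in both interactions, 1 from P1 to P14 in Casp2-depleted CMs, a median of -1.48 from P7 to P14 there, and -0.80 for Pold3 between the genotypes at P1, which turned its sign. The groups compared alone gave 0 at P14 and in the interaction from P1 to P14, 1 in controls from P7 to P14, and Casp2-depleted medians of -0.80 and -0.33 at P14 against P7 and P1. No such fit exists for the mean of days. The covariate for reads outside genes gave 0 in controls from P7 to P14 and Casp2-depleted medians of -0.73 and -0.91. Over the mean of days, 0 were called with relative log expression factors, without a filter and without robust estimation.

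With the replicate block 0 were called over the mean of days and in both interactions from P7 and P1 to P14, Mcm3 was lost and Pola1 gained as given above, and no other call changed.

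Leaving out 1 library gave 0 to 3 called at P14, 0 to 2 over the mean of days and in each interaction to P14, 0 to 2 in controls and 2 to 4 in Casp2-depleted CMs from P7 to P14, and 0 to 1 and 2 to 4 from P1 to P14. Medians from P7 to P14 ran from -3.10 to -0.46 in controls and -3.50 to -1.30 in Casp2-depleted CMs, and from P1 to P14 from -1.82 to -0.11 and -3.74 to -1.12. Lig1 ran from -2.74 to 0.12 over the mean of days and from -8.48 to 0.10 in the interaction from P1 to P14, both at their highest without P14 control replicate 1.

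Summed CPM without TMM was 1012 and 1249 at P7 and 892 and 949 at P14, without Rfc1 it was 1050 and 1200 at P7, and with all 24 libraries it was 531 in P14 controls. Members detected moved by less than 1 SD under every alternative run. Levels under 3 reads could not be told from absence.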
